A study of Mus musculus with 13 samples.

Results

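The nectin-like ligands Cadm1, Pvr and Nectin2 and the lymphocyte receptors Crtam, Cd226, Tigit and Cd96 were read in 6 populations of mouse spleen leukocytes on 13 Affymetrix arrays. These are 7 genes of a system of cell surface recognition. They were chosen by symbol, through the probe sets that the platform annotation gives to one of these symbols only, and each gene was represented by its probe set with the highest mean over the 13 arrays. Of the 7 genes, 6 had such a probe set among 18194 genes in all, and 4 of them (Cadm1, Pvr, Crtam and Cd96) were among the 9380 genes with a signal of at least 50 on all arrays of at least 1 population, which were the genes tested. Nectin2 and Cd226 lay under that limit and are described without a call, and Tigit is not analysed here.

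The populations came from spleens of untreated C57BL/6 mice and were sorted by flow cytometry: plasmacytoid DCs (pDCs; lineage-negative, CD11c-positive, 120G8-high), CD8α conventional DCs (CD8α cDCs; CD11c-high, CD8α-positive), CD11b cDCs (CD11c-high, CD11b-positive), NK cells (NK1.1-positive, TCRβ-negative), B cells and CD8 T cells. Each population had 2 arrays, B cells 3. Spleens were pooled before sorting, from 10 to 15 mice per DC array and 6 to 10 per NK cell array. For B cell replicates 1, 2 and 3 the RNA came from 3, 2 and 1 mice, and for CD8 T cells from a single mouse per array. The labels give an age for 5 arrays only, 6 to 8 weeks or 6 weeks, and describe B cell replicates 2 and 3 as follicular and replicate 1 as B lymphocytes. A sex is labelled for the same 5 arrays. It is female for CD8α cDC replicate 1 and both CD8 T cell arrays, and male for B cell replicates 2 and 3.

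CADM1 is an immunoglobulin-superfamily adhesion molecule that binds itself and also CRTAM, a receptor of activated NK and T lymphocytes. PVR, the poliovirus receptor CD155, and nectin-2, known as CD112, are bound by the activating receptor CD226 and the inhibitory receptor TIGIT, and PVR is also bound by CD96. In this way a DC or a stressed cell can present a ligand to several receptors of opposite effect on the same NK or CD8 T cell.

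Signals are MAS5 intensities, which the authors scaled to a target of 100 on each array, so a signal is comparable between arrays for the same probe set and is not compared between genes. Differences are on the log2 scale after values under 20 were set to 20, and a difference against a population at this floor is therefore a lower limit. A gene was called at an adjusted p below 0.05 in limma. In these bulk samples, fewer cells that carry a transcript and less of the transcript in each cell cannot be told apart.

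Each population carried the defining markers of its label, although other populations shared some of them. The summed signal of 4 pDC markers (Siglech, Bst2, Klra17 and Tcf4) was 13591 to 16189 in pDCs and at most 765 elsewhere, and that of 5 NK cell markers was 32683 to 33076 in NK cells and at most 6274 elsewhere, the latter in CD8 T cells. T cell markers summed to 12492 to 14547 in CD8 T cells, and next to 2949 to 3118 in CD8α cDCs and 2142 to 2169 in pDCs, where Cd8a, and in pDCs also Cd8b1, made up nearly all of the sum; NK cells followed at 556 to 602, with Cd3d at 121 and 158. B cell markers summed to 14540 to 20392 in B cells and at most 490 elsewhere. CD8α cDC markers summed to 4842 to 4850 in CD8α cDCs, 1292 to 1436 in CD11b cDCs and 1044 to 1105 in CD8 T cells. CD11b cDC markers summed to 1491 to 1673 in CD11b cDCs and 677 to 746 in pDCs. Markers of all DCs summed to 5581 to 7944 in cDCs, 2579 and 2967 in pDCs, and 2978 to 2994 in NK cells. Macrophage and monocyte markers summed to 1517 to 1741 in CD11b cDCs, mostly Adgre1, and to at most 215 elsewhere. DCs and lymphocytes were scanned in separate periods, on chips of separate lots, and the CD8 T cell arrays stood alone in both, so that for differences between DCs and lymphocytes, and between NK cells and CD8 T cells, the period and the population cannot be told apart. The ratio of 3′ to 5′ Gapdh signals, a sign of RNA integrity, was 23.9 and 11.2 on the NK cell arrays and 3.46 to 6.30 on the others. On 3 of the 5 arrays with a labelled sex, B cell replicate 2 and both of CD8 T cells, Xist and Eif2s3y signals opposed the label. On all DC arrays Xist was 1539 to 4503 and Eif2s3y at most 8.51. On NK and CD8 T cell arrays Xist was at most 0.963 and Eif2s3y 346 to 968. Sex by these signals and population therefore cannot be told apart between DCs and the NK and CD8 T cells. Signals of replicates correlated at 0.934 to 0.987 across the genes tested on the log2 scale.

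Cadm1 was a transcript of DCs, and above all of CD8α cDCs. Its signal (probe set 1417377_at) was 1811 and 1786 on the CD8α cDC arrays, 155 and 164 in pDCs and 41.1 and 30.2 in CD11b cDCs. It was 2.95 and 9.96 in NK cells, 6.41, 0.807 and 0.694 in B cells, and 4.13 and 3.52 in CD8 T cells. The 3 DC populations did not overlap with one another or with any lymphocyte array, and all 7 lymphocyte arrays lay below the floor. The mean signal was 1798 ± 17.6 in CD8α cDCs, 160 ± 6.50 in pDCs and 35.7 ± 7.75 in CD11b cDCs (SD, n = 2 each).

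Every step of this order passed the test among the DCs. CD8α cDCs exceeded CD11b cDCs by 5.67 (SE 0.17), a 51.0-fold difference (adjusted p = 7.51e-09), and pDCs by 3.49 (SE 0.17), an 11.3-fold difference. pDCs in turn exceeded CD11b cDCs by 2.18 (SE 0.17), a 4.53-fold difference. Over the lymphocytes, all of which lay at the floor, Cadm1 was at least 89.9-fold higher in CD8α cDCs, at least 7.99-fold in pDCs and at least 1.76-fold in CD11b cDCs (adjusted p between 6.88e-10 and 0.00265 over these 9 pairs). The study itself names Cadm1 as a gene of CD8α cDCs on these samples, so its value between the cDC subsets is not independent evidence. The study's real-time PCR on independent samples also had Cadm1 highest in CD8α cDCs and undetected in lymphocytes. In that PCR, unlike on these arrays, CD11b cDCs came above pDCs, and the gap between the cDC subsets was smaller. Within the single day on which 5 of the 6 DC arrays were scanned, which leaves 1 CD11b cDC array, the difference between the cDC subsets was 5.90. Under invariant-rank scaling, the kind of normalization used in the study, it was 4.77 (SE 0.30).

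The 4 probe sets of Cadm1 gave the same order of DCs. CD8α cDCs read 1029 and 998 on 1417376_a_at, 1678 and 1625 on 1417378_at, and 131 and 164 on 1431611_a_at, each above all other arrays of its probe set. pDCs followed, above CD11b cDCs, on all 4 probe sets by their means, although on 1431611_a_at every array outside CD8α cDCs was at 27.6 or lower.

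**Figure D1:**
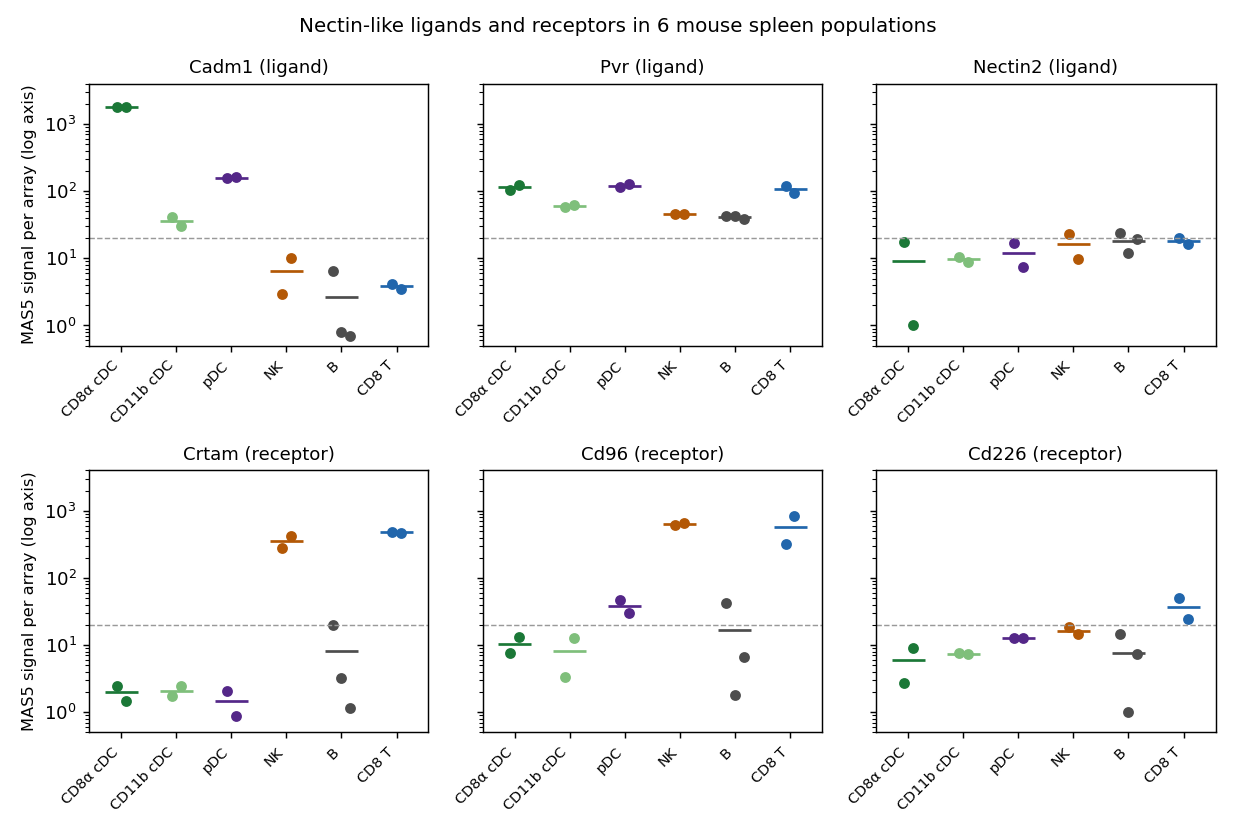
Signal of each measured gene on each array (points, log axis in MAS5 signal units), with the mean of each population as a line and the floor of 20 dashed, for CD8α cDCs, CD11b cDCs, pDCs, NK cells and CD8 T cells (2 arrays each) and B cells (3). Cadm1 is high in CD8α cDCs, at 1811 and 1786, whereas Crtam and Cd96 are high in NK cells and CD8 T cells; Nectin2 stays near or under the floor in all 6 populations.

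Crtam, the receptor for Cadm1, had the opposite distribution. Its signal was 283 and 416 on the NK cell arrays and 480 and 474 on the CD8 T cell arrays. It was at most 2.48 on the 6 DC arrays and was 19.7, 3.25 and 1.16 on the B cell arrays. All 9 of these arrays lay under the floor, and none overlapped with NK cells or CD8 T cells. Crtam was at least 17.2-fold higher in NK cells and at least 23.9-fold higher in CD8 T cells than in each DC population and in B cells (adjusted p between 5.35e-09 and 2.44e-08 over these 8 pairs).

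Between NK cells and CD8 T cells, Crtam differed by -0.48 (SE 0.18, 95% interval -0.88 to -0.07, adjusted p = 0.0611), NK cells being lower on both arrays, and was not called. This call turned on the processing and on single arrays: it was made with NK cell replicate 2 left out (-0.75, adjusted p = 0.00393), whereas without NK cell replicate 1 the value shrank to -0.20 (adjusted p = 0.295); it was also made at a floor of 50 (adjusted p = 0.0359), after quantile normalization (adjusted p = 0.0481) and with scan days as random blocks (adjusted p = 0.0473). The B cell array with the highest Crtam signal, replicate 1, also had the highest summed T cell markers of the 3, 137 against 82.7 and 59.3, with Cd3g at 52.7. NK cell markers summed to 4889 to 6274 in CD8 T cells, 4 of 5 at 50 or more on both arrays, while Ncr1, which marks NK cells, was at 8.09 and 6.25. Their part in these values was not tested.

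Cadm1 and Crtam were thus called on opposite sides of the divide between DCs and the NK and CD8 T cells. Over the mean of the 3 DC populations minus the mean of NK cells and CD8 T cells, Cadm1 was higher in DCs by 3.44 (SE 0.11, adjusted p = 9.13e-10) and Crtam lower by 4.34 (log2 difference -4.34, SE 0.12, adjusted p = 2.91e-10). Under invariant-rank scaling these were 2.43 and -3.85, both called. All 4 tested members were called in this comparison, the ligands Cadm1 and Pvr higher in DCs and the receptors Crtam and Cd96 lower. Of all genes tested, 60% were called there, 2807 higher and 2823 lower, so being called does not in itself set the members apart. Crtam and Cd96 reached the limit of 50 on all arrays only in NK cells and CD8 T cells. Cadm1 did so only in CD8α cDCs and pDCs. Each thus passed the filter through populations in which it was high, so these calls are no separate support for its distribution.

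Pvr had a flatter distribution, which did not follow the line between DCs and lymphocytes. Its signal (1451160_s_at) was 114 and 129 in pDCs, 105 and 125 in CD8α cDCs, and 118 and 95.1 in CD8 T cells. It was 58.3 and 63.0 on CD11b cDC arrays, 45.6 and 45.8 with NK cells, and 42.1, 42.1 and 38.5 in B cells. All 13 arrays lay above the floor, and those of pDCs, CD8α cDCs and CD8 T cells overlapped with one another and with none of the other 3 populations.

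These 3 populations did not differ from one another beyond the spread. pDCs minus CD8α cDCs was 0.07 (95% interval -0.31 to 0.45), pDCs minus CD8 T cells 0.19 (-0.19 to 0.57), and CD8α cDCs minus CD8 T cells 0.12 (-0.26 to 0.49). CD11b cDCs were lower than CD8α cDCs by 0.92 (SE 0.17, 1.90-fold, adjusted p = 0.00281), and 0.87 lower within the single scan day. Farther down the order, CD11b cDCs minus NK cells was 0.41 (adjusted p = 0.0801) and NK cells minus B cells was 0.16 (adjusted p = 0.449), neither of which was called, while CD11b cDCs exceeded B cells by 0.57 (adjusted p = 0.0134).

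In the comparison of all DCs with NK and CD8 T cells, Pvr was higher by 0.44 (SE 0.11, adjusted p = 0.00535), although its 2 lymphocyte populations lay on either side of CD11b cDCs. NK cells were lower than CD8 T cells by 1.22 (log2 difference -1.22, SE 0.17, 2.32-fold, adjusted p = 0.000329), or -0.62 under invariant-rank scaling (adjusted p = 0.0145). Pvr was the single one of the 4 tested members called between these lymphocytes, where 38.1% of all genes tested were called. The part in this value of the higher 3′ to 5′ Gapdh ratios of the NK cell arrays was not tested.

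These values rest on 1 of the 7 probe sets of Pvr. The other 6 had low signals, at most 52.9 on 1423903_at, 56.4 on 1423904_a_at and 27.8 on the rest. By 1423903_at and 1423904_a_at, NK cells were below CD8 T cells by 0.82 (log2 difference -0.82, adjusted p = 0.0674) and 0.96 (-0.96, adjusted p = 0.0345), whereas the difference of DCs from NK and CD8 T cells became -0.05 and -0.24, neither called. CD8α minus CD11b cDCs was 0.55 (adjusted p = 0.284) and 0.38 (adjusted p = 0.485) on these, and pDCs minus cDCs 0.55 (adjusted p = 0.148) and 0.74 (adjusted p = 0.0565). On the remaining 4, both differences among DCs were 0, at the floor, so Pvr's calls among the DCs were made on no other probe set.

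**Figure D2:**
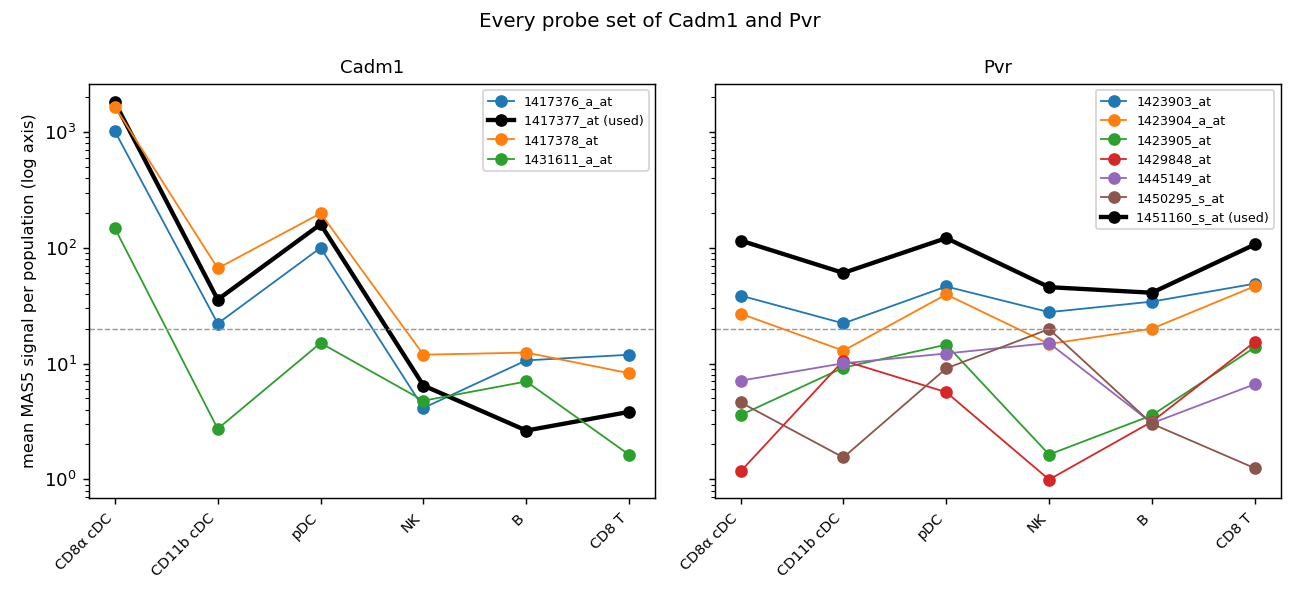
Mean MAS5 signal of each population (log axis) for each probe set of Cadm1 (4, left) and Pvr (7, right), with the probe set used in black and the floor of 20 dashed; lines join the populations for reading only, and shapes rather than heights compare between probe sets. All 4 Cadm1 probe sets peak in CD8α cDCs, whereas the Pvr probe sets other than the one used lie near or under the floor and differ in shape.

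Nectin2, the second ligand of CD226 and TIGIT, was near background in every population. Its signal (1417703_at) was 17.4 and 1.01 in CD8α cDCs, 10.3 and 8.91 in CD11b cDCs, and 16.7 and 7.44 in pDCs. It was 23.4 and 9.61 in NK cells, 23.7, 12.2 and 19.4 in B cells, and 20.2 and 16.5 in CD8 T cells. All populations overlapped, and the highest of the 13 values was less than the limit of 50 used for testing; on its other probe set no array exceeded 15.0. Without the filter, its difference between DCs and NK and CD8 T cells was -0.06 (SE 0.06, adjusted p = 0.601). These arrays therefore give only an upper limit for Nectin2 in the 3 DC populations.

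Cd96, a receptor for PVR, was a transcript of NK cells and CD8 T cells. Its signal (1419226_at) was 607 and 654 on the NK cell arrays and 319 and 847 on those of CD8 T cells. It was 46.9 and 30.2 in pDCs, 7.52 and 13.1 in CD8α cDCs, 3.34 and 12.9 in CD11b cDCs, and 41.7, 1.78 and 6.68 in B cells. No other array exceeded 46.9, far under those of NK cells and CD8 T cells, and the 2 CD8 T cell arrays, each from 1 mouse, spread to either side of the NK cell arrays.

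NK cells exceeded both cDC subsets at least 31.5-fold and pDCs 16.7-fold (adjusted p = 7.18e-06 and 3.50e-05), and CD8 T cells exceeded them at least 26.0-fold and 13.8-fold (adjusted p = 1.13e-05 and 6.02e-05). NK cells and CD8 T cells did not differ beyond their spread, at 0.28 (95% interval -0.72 to 1.27, adjusted p = 0.684). The sign of this difference turned to -0.43 without CD8 T cell replicate 1 and was 0.98 without replicate 2. The comparison of DCs with NK and CD8 T cells gave -4.53 (SE 0.29, adjusted p = 2.30e-07), or -3.70 under invariant-rank scaling.

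In pDCs both Cd96 signals lay above the floor and above all 4 cDC arrays, by 0.91 (SE 0.39, adjusted p = 0.0915), a difference that was not called. It was called without B cell replicate 1 (adjusted p = 0.0418), without either CD8 T cell array (adjusted p = 0.0468 and 0.0466) and with a model term for the naming style of the samples (adjusted p = 0.0408), none of which changed its size. On the pDC arrays, 2 of the 6 T cell markers had signals of at least 50, Cd8a (781 and 1047) and Cd8b1 (1295 and 1088), while Cd3d, Cd3e and Cd3g were at 18.0 or lower and the NK cell markers summed to 73.8 and 96.9. On B cell replicate 1, the 1 B cell array with Cd96 above the floor, T cell markers summed to 137. Their part in these values was not tested.

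Cd226, the activating receptor shared by Pvr and Nectin2, reached the floor in 1 population only. Its signal (1445388_at) was 49.8 and 24.5 in CD8 T cells, 18.3 and 14.4 in NK cells, and 12.7 and 12.6 in pDCs. It was 14.4, 1.01 and 7.31 in B cells, 2.72 and 9.19 in CD8α cDCs, and 7.52 and 7.33 in CD11b cDCs. Both CD8 T cell arrays lay above the other 11, all of which were below 20. Without the filter, NK cells minus CD8 T cells was -0.80 (SE 0.27, adjusted p = 0.0885) and DCs minus NK and CD8 T cells was -0.40 (SE 0.17, adjusted p = 0.134), neither of which was called.

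**Figure D3:**
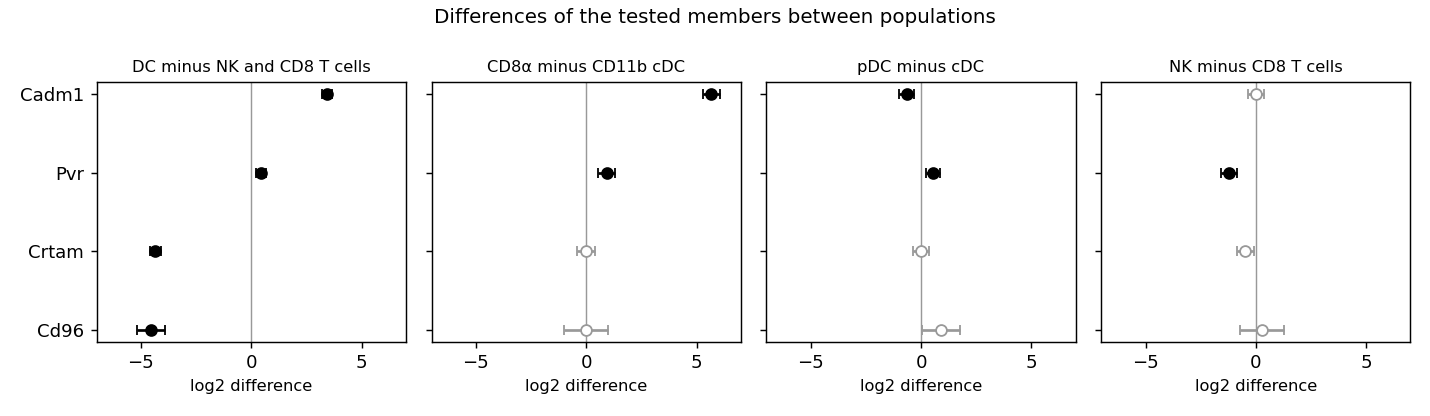
Log2 difference of each tested member (rows) in the 4 comparisons (panels), as the estimate with its 95% interval; filled points were called in limma and open points were not. In the first panel Cadm1 and Pvr lie to the right (3.44 and 0.44) and Crtam and Cd96 to the left (-4.34 and -4.53); in the second, Cadm1 lies at 5.67.

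Among the DC subsets, calls were made on the ligands Cadm1 and Pvr and on neither tested receptor. Between CD8α and CD11b cDCs, 2 of the 4 tested members were called, Cadm1 and Pvr, both higher in CD8α cDCs, the call on Pvr by its 1 stronger probe set alone; 19.5% of all genes tested were called there, 840 higher and 990 lower. Crtam and Cd96 were under the floor in both subsets and gave no difference. Between pDCs and the mean of both cDC subsets, 2 of 4 were called against 36.7% of all genes tested: Pvr was higher in pDCs by 0.53 (SE 0.15, adjusted p = 0.0155) and Cadm1 lower by 0.66 (log2 difference -0.66, SE 0.15, adjusted p = 0.00450). The value of Cadm1 averages over cDC subsets that lay on either side of pDCs. The call on Pvr was lost without pDC replicate 2 (0.45, adjusted p = 0.104), as well as on each other probe set. Between the DC arrays of the single scan day, which leave 1 CD11b cDC array, the values were 0.51 for Pvr and -0.54 for Cadm1. No call is given for them, since the spread in that fit also came from arrays of other days. The 4 comparisons come from one fit and share arrays.

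Over all 15 pairs of populations, 38 of the 60 differences of the 4 tested members were called, against 41.4% of the differences of all genes tested. The number was 12 of 15 for Cadm1, 10 for Pvr and 8 each for Crtam and Cd96. The 8 pairs of each receptor were those between NK or CD8 T cells and each of the other 4 populations.

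RefSeq's promoter table (build GRCm38.p6) held 3 of the 7 genes, Nectin2, Tigit and Cd96. Those of Cd96, high in NK and CD8 T cells, and Nectin2, near background throughout, are printed to let their composition be compared, each from 250 bases before the transcript start to 50 after it, 5′ to 3′ on the strand of the gene. The Cd96 promoter lies at chr16:46120199-46120498 and the Nectin2 promoter at chr7:19749524-19749823, both on the minus strand. Capitals mark matches on either strand to TGTGGT, a core bound by RUNX factors, and GGAAGT, a core bound by ETS factors.
Cd96: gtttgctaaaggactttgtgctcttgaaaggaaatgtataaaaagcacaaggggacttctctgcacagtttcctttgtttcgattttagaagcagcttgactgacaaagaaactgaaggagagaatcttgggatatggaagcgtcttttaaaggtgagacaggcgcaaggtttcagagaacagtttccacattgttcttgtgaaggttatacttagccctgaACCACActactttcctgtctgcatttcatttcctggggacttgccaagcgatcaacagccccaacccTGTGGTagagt
Nectin2: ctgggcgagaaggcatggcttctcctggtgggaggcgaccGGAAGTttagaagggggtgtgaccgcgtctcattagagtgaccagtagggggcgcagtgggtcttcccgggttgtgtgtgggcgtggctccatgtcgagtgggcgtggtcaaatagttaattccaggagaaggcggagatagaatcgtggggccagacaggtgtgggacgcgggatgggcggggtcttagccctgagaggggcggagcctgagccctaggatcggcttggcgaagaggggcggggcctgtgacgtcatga
The Cd96 window held 2 matches to TGTGGT, one of them starting 28 bases before the transcript start, and none to GGAAGT, whereas the Nectin2 window held 1 match to GGAAGT, 210 bases before the start, and none to TGTGGT. Of all 32851 promoters in the table, 16.8% held TGTGGT and 23.8% held GGAAGT on either strand, and the matches do not overlap each other. The Nectin2 window was 62.7% G and C with 20 CpG dinucleotides, and the Cd96 window 43.7% with 4. A match says only that these letters occur in the window.

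Other nectins and nectin-like molecules were read from 7 listed genes (Nectin1, Nectin3, Nectin4, Cadm2, Cadm3, Cadm4 and Pvrig), of which 5 had a probe set and 2, Cadm3 and Nectin4, could be tested. Cadm3, a paralogue of Cadm1, was highest in CD11b cDCs, the cDC subset in which Cadm1 was lowest. Its signal was 158 and 119 there, 2.89 and 26.4 in CD8α cDCs and at most 32.7 on all other arrays, so that CD11b cDCs overlapped with no other population, and they were also the highest on both other probe sets of Cadm3. CD8α minus CD11b cDCs was -2.57 (SE 0.28, adjusted p = 6.43e-05), against 5.67 for Cadm1. Cadm3 passed the filter through CD11b cDCs alone, so its calls are no separate support for its distribution. Of the 5 macrophage and monocyte markers, Adgre1 moved with Cadm3, at 1300 and 1505 in CD11b cDCs and at most 65.5 elsewhere. C1qb did so too, at 136 and 110 against at most 34.1. Cd14 did not, at 54.1 and 83.7 in CD11b cDCs but 149 and 79.3 in pDCs. Neither did Trem1, at 25.8 and 28.3 in CD11b cDCs but 52.0 on B cell replicate 1. Marco was under 20 on all arrays. The part of these markers in the Cadm3 values was not tested.

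Nectin4 was highest in pDCs, at 66.1 and 79.7, against at most 41.3 on all other arrays. pDCs exceeded the cDC mean by 1.60 (SE 0.23, adjusted p = 0.000287). Nectin4 passed the filter through pDCs alone, in which it was high, so its calls are no separate support for its distribution. Over the mean of DCs, Cadm3 (0.86, adjusted p = 0.00199) and Nectin4 (0.79, adjusted p = 0.00250) were called higher than in NK and CD8 T cells. Of all genes tested, 60% were called there, 29.9% of them all being higher. Not every DC population took part. Cadm3 in pDCs and CD8α cDCs did not differ from NK cells beyond the spread (-0.27 and -0.07, neither called). Nectin4 was under the floor on both CD8α cDC arrays, at 4.55 and 19.6, as in NK and CD8 T cells. Nectin1 reached 51.8 and 47.3 in CD8α cDCs and 41.2 and 33.8 in CD11b cDCs, against at most 26.7 elsewhere, but did not pass the filter. Nectin3 and Cadm4 stayed at 22.1 or lower on every array.

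Intracellular partners of the ligands and receptors were read from 16 listed genes, 13 of which were tested. Between DCs and NK and CD8 T cells, 6 were higher and 4 lower, with a median log2 difference of 0.27 against -0.01 over all genes tested, 60% of which were called. Tiam1, an activator of the GTPase Rac that binds the cytoplasmic tail of CADM1, was, like Cadm1, highest in CD8α cDCs, but CD11b cDCs came next, ahead of pDCs. Its signal was 238 and 225 there, 59.1 and 77.8 in CD11b cDCs, 23.2 and 34.4 in pDCs, and at most 16.9 in lymphocytes. CD8α cDCs exceeded CD11b cDCs by 1.77 (SE 0.20, adjusted p = 9.23e-05), the one partner higher in this comparison. Tiam1 passed the filter through the cDC subsets alone, in which it was highest, so its calls are no separate support for its distribution.

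Afdn, the afadin that links nectins to the actin cytoskeleton, was the one partner lower in CD8α than in CD11b cDCs, by 1.09 (log2 difference -1.09, SE 0.17, adjusted p = 0.000718). Its signal was 142 and 143 in CD8α cDCs, 299 and 308 in CD11b cDCs and 43.5 and 53.3 in pDCs. NK cells were at 176 and 153, above CD8 T cells at 38.9 and 36.6, by 2.12 (SE 0.17, adjusted p = 4.39e-06). The part of the macrophage and monocyte markers of CD11b cDCs in the Afdn values was not tested. The band 4.1 protein gene Epb41l2, also a partner of CADM proteins, was higher over the mean of DCs than in NK and CD8 T cells by 1.52 (SE 0.17, adjusted p = 2.28e-05). It was lower in pDCs than in cDCs by 1.81 (-1.81, adjusted p = 0.000103). Its mean signal was 732 in CD8α cDCs, 812 in CD11b cDCs and 752 in B cells. In pDCs, NK cells and CD8 T cells it was 220, 197 and 161, in that order.

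On the receptor side, Prkcq, the protein kinase C theta of T cell signalling, followed Crtam and Cd96. Its signal was 2187 and 2642 on NK cell arrays, 1738 and 1730 on CD8 T cell arrays and at most 25.3 on the other 9 arrays. The difference of DCs from NK and CD8 T cells was -6.67 (SE 0.11, adjusted p = 2.15e-11). Prkcq passed the filter through NK cells and CD8 T cells alone, so this call is no separate support for its distribution. The integrin chain Itgal, a partner of CD226, was also lower over the mean of DCs, by 1.16 (-1.16, adjusted p = 4.71e-05), as was the polarity gene Scrib, by 1.02 (-1.02, adjusted p = 0.00260). On a second Itgal probe set, CD8 T cells averaged 61.5, below pDCs (69.6) and CD8α cDCs (76.6) and above CD11b cDCs (37.5). NK cells were highest there, at 135. The kinase Fyn was lower over the mean of DCs by 1.35 (-1.35, adjusted p = 0.00272), but its pDC signals, 3673 and 3835, lay above those of CD8 T cells, 1213 and 1414, and below those of NK cells, 5818 and 5470. pDCs exceeded cDCs in Fyn by 2.73 (SE 0.41, adjusted p = 0.000314). Other partners went the opposite way to the receptors. Plcg2 was called higher over the mean of DCs than in NK and CD8 T cells by 2.58 (adjusted p = 1.48e-07). Its means were 1759 to 1979 in DCs and 1370 in NK cells, against 75.0 in CD8 T cells. Grb2 was called higher by 1.43 (adjusted p = 6.37e-05) and Inpp5d by 1.22 (adjusted p = 0.000119). Inpp5d averaged 1062 in pDCs and 1040 in NK cells, 2027 and 1277 in CD8α and CD11b cDCs, and 358 in CD8 T cells. On a second probe set of Grb2, NK cells averaged 264, above pDCs (189) and CD8α cDCs (214) and below CD11b cDCs (362).

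Between NK cells and CD8 T cells, 6 of the 13 partners were higher in NK cells and none was lower, with a median of 0.83 against 0.05 over all genes tested, of which 21.5% were higher and 16.6% lower. The 3′ to 5′ Gapdh ratios, 23.9 and 11.2 in NK cells against 3.46 and 3.96 in CD8 T cells, separate the same arrays, and their part was not tested. The phospholipase Plcg2 showed the largest difference of the 6, with signals of 1385 and 1354 on NK cell arrays and 92.9 and 57.0 on CD8 T cell arrays, or 4.23 (SE 0.24, adjusted p = 4.40e-07). The other 5 were Fyn, Afdn, Itgb2, Inpp5d and Itgal, at 2.11, 2.12, 1.34, 1.50 and 0.93 in that order. Inpp5d encodes the lipid phosphatase SHIP1, which inhibitory receptors such as TIGIT recruit. Prkcq was at 0.47 and lay at the threshold: it was not called in this comparison (adjusted p = 0.0505) but was called in the adjustment over all pairs together (adjusted p = 0.0472).

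Between pDCs and cDCs, 2 partners were higher, Fyn and Itgal (0.73, adjusted p = 0.0132), and 5 were lower: Tiam1 (-2.15), Afdn (-2.11), Epb41l2 (-1.81), Scrib (-0.86) and Itgb2 (-0.80). Over all genes tested, 17.7% were higher and 19.1% lower. The last 2 of these, with adjusted p of 0.0472 and 0.0348, lost their call in 10 and 9, in that order, of the 13 fits that each left out 1 array, with values between -1.09 and -0.63 and between -1.04 and -0.55. Itgal lost its call here without either pDC array (0.67 to 0.79), and in the comparison of NK cells with CD8 T cells without NK cell replicate 2 or CD8 T cell replicate 2 (0.79 to 1.06 over all such fits). On the second Itgal probe set, pDCs averaged 69.6, between CD8α cDCs at 76.6 and CD11b cDCs at 37.5. Dlg1 and Vav1 were called in none of the 4 comparisons, and Epb41l3 and Mpp3 did not pass the filter.

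**Figure D4:**
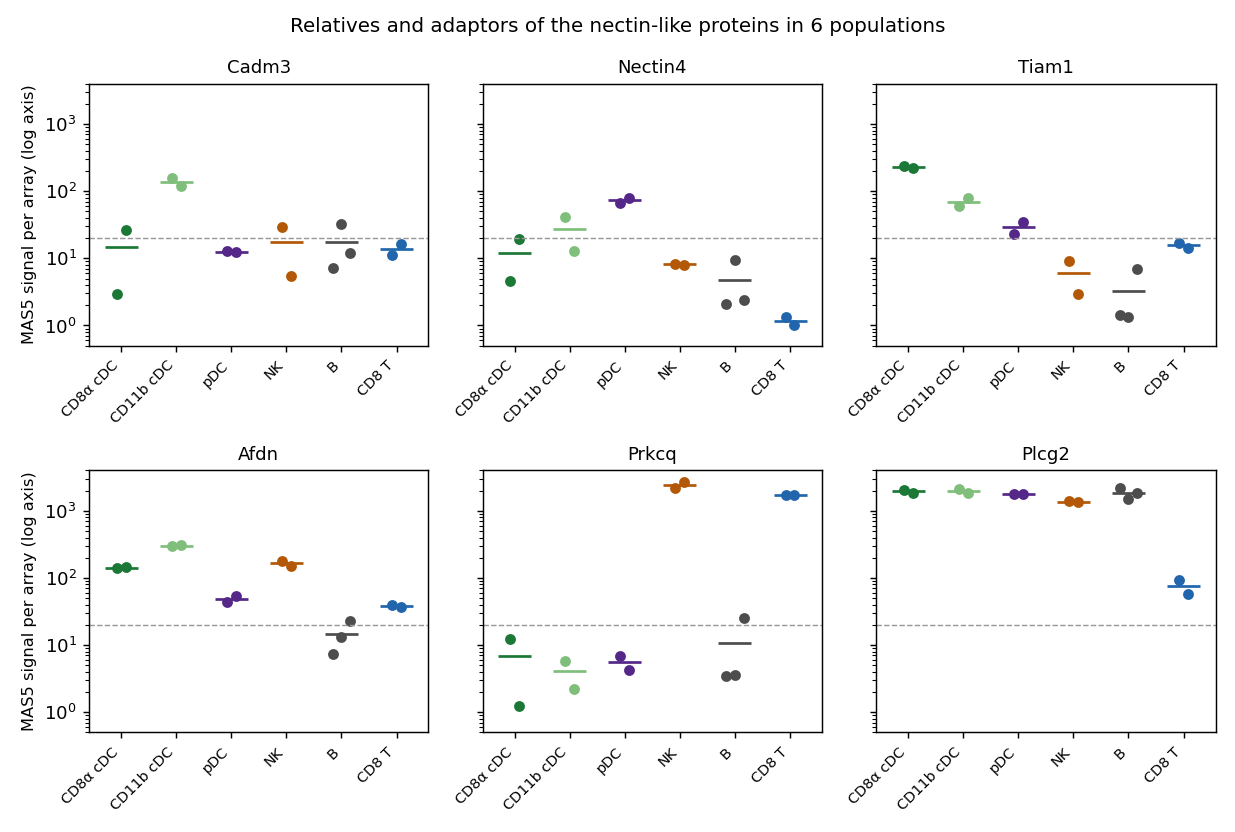
Signal on each array (points, log axis in MAS5 signal units) of 2 relatives of the ligands, Cadm3 and Nectin4, and 4 intracellular partners, Tiam1, Afdn, Prkcq and Plcg2, in the 6 populations, with population means as lines and the floor of 20 dashed. Cadm3 is high in CD11b cDCs (158 and 119), Tiam1 in CD8α cDCs (238 and 225) and Prkcq in NK cells and CD8 T cells.

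The genes whose means over the 6 populations were most like those of each tested member were found by Pearson's r on the log2 scale among 7007 genes whose means spanned at least 1. For Cadm1 these were Ttc8 (r = 0.993), the disulfide isomerase gene Pdia5 (0.991) and the ectoenzyme gene Bst1 (0.991). Pdia5 averaged 2537 in CD8α cDCs, 362 in pDCs and 52.4 in CD11b cDCs, and at most 12.2 in lymphocytes, the same order as Cadm1.

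For Crtam they were Cd247, the zeta chain of the T cell receptor complex (0.9999), the adaptor gene Skap1 (0.9993) and the granzyme gene Gzmk (0.9990). Cd247 averaged 672 over NK cells and 993 over CD8 T cells and at most 14.5 elsewhere. For Cd96 they were Hdhd5 (0.995), Zdhhc15 (0.994) and the thrombin receptor gene F2r (0.992), the last with a mean of 2102 for NK cells and 2643 for CD8 T cells. For Pvr they were Hsdl2 (0.986), the translocon subunit gene Sec61b (0.966) and AI662270 (0.963), and Hsdl2 averaged 368 in pDCs, 366 in CD8α cDCs, 335 in CD8 T cells and 128 to 143 in the other 3 populations. With 6 points each, these are descriptions of shape over the same libraries. Crtam lay at the floor in every DC population and in B cells, so genes high in NK and CD8 T cells alone give a high r with it.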

How the data were processed

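The authors hybridised amplified RNA of 13 samples to Affymetrix mouse genome arrays and deposited MAS5 intensity values, linear and scaled to a target of 100 per array. Of 45101 probe sets, 34958 were annotated to 1 gene. The members and lists were chosen with earlier results of these data known. Named besides the members were list genes called in a comparison or needed to account for a list, and the 3 genes most like each member. Intensities were floored at 20, log2 transformed and fitted with limma 3.58.1 in R 4.3.3 as a mean per population (6 means, 7 residual degrees of freedom). Tests were two-sided, with Benjamini-Hochberg adjustment over 9380 genes (over genes and 15 pairs together for pairs, which gives those p-values) and a threshold of 0.05. The paper states independent sorts for the DC and NK cell duplicates. For B cells and CD8 T cells it names further independent experiments, without saying whether each replicate had its own. There p-values may measure technical spread, and the small number of arrays limits precision. Same-numbered arrays of different populations deviated together in 4 of 15 pairs (correlations -0.20 to 0.18 over all pairs). These included CD8α with CD11b cDCs and NK with CD8 T cells, at 0.18 each. No pairing was used in the main fit. With a replicate block, 2 and 1 of the tested members were called in these comparisons, as without it. The fit was tested on simulated data. Scanner report files served for scan day, chip lot and RNA amount. Alternatives changed 1 choice at a time: normalization, floor, filter, variance model, blocks, probe set, and each array left out.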

Additional observations from a re-analysis of the deposited data

How the results depend on the processing

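Most values of single genes kept their direction and side of the threshold: 923 did, 62 lost their call, 8 gained one and 6 reversed. Members called between NK and CD8 T cells became 2, with Crtam added, after quantile normalization, at a floor of 50 and with scan days as random blocks, and ranged from 1 to 2 when single arrays were left out. Members called between pDCs and cDCs became 1 with no floor other than 1, losing Cadm1, and ranged from 1 to 3 without single arrays. Genes called between the cDC subsets ranged from 1115 to 2412 without single arrays, against 1830. Cd96 between NK and CD8 T cells reversed to -0.78 with a model term for the naming style of the samples, and without single arrays ranged from -0.43 (CD8 T cell replicate 1) to 0.98 (replicate 2). Pvr reversed between DCs and NK and CD8 T cells on 1423903_at (-0.054), 1423904_a_at (-0.24) and 1450295_s_at (-0.12), and between NK and CD8 T cells on 1450295_s_at (0.24). With no floor other than 1, Cadm3 lost its calls between DCs and NK and CD8 T cells and between pDCs and cDCs, and Afdn and Tiam1 theirs between the cDC subsets, with values of 0.90, -1.48, -1.09 and 1.77 close to the main ones and larger standard errors. Differences against populations at the floor move with it: Cadm1 between DCs and NK and CD8 T cells was 2.28 at a floor of 50 and 5.57 with none other than 1. The cause of the other changes was not tested. With the replicate block, 1691 genes were called between the cDC subsets and 37 of 60 member pairs. Signals under about 50 limit Nectin2, Cd226 and the weaker Pvr probe sets.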
